A study of Mus musculus with 6 samples.

Results

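The interferon-induced proteins with tetratricopeptide repeats (IFITs) were examined as a family in RNA sequencing libraries of mouse renal tubular epithelial cells (mTECs). Its members were the genes of the deposited expression table whose GENCODE M21 symbol was Ifit1, Ifit2, Ifit3 or Ifit3b, which gave 4 genes of 22442. The members were chosen by their measured difference between the groups described here, with Ifit1 far lower in one group and Ifit2 and Ifit3 not. The members' levels and fold changes in that contrast are therefore given as a description, without a test. All 4 members passed the filter on low values used for the table, a mean of at least 0.5 FPKM (fragments scaled to gene length and library size) over the 6 libraries, as did 11723 genes in all.

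The libraries fell into 2 groups of 3. Cells of both groups were stimulated for 24 h with lipopolysaccharide (LPS), a component of the outer membrane of Gram-negative bacteria, at 20 µg/ml. Cells of the libraries labelled LPS had received a negative control before the stimulation, and those of the libraries labelled LPSKD an siRNA, in a study that silenced the transcription factor Stat3. For mouse Stat3 the study's methods list a short hairpin RNA and no siRNA, so the agent is uncertain. The study describes mTECs as an immortalised line, whereas the labels describe cells sorted with magnets. No library of cells without LPS was used here, so the values do not tell how LPS itself changed the members. No label says whether the replicates came from separate cultures, so the spread and the p-values refer to these libraries and may be technical.

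Transcripts of Stat3, the gene the study set out to silence (chr11:100885098-100939540, minus strand), were measured at 34.6, 31.4 and 35.2 FPKM in the LPS-labelled libraries and at 30.8, 35.2 and 34.3 FPKM in the LPSKD-labelled ones. The groups overlapped, with a log2 fold change of -0.01 (SE 0.07, limma adjusted p = 0.944). The transcript was thus not measurably lower where the labels name a knockdown, and the groups keep their labels throughout. The study itself reports knockdown of Stat3 in mTECs by real-time PCR and western blot. It does not say whether the cells of these libraries were the ones examined. Keratins mark the cells as epithelial (Krt8 lay between 1158 and 1245 FPKM), and Epcam lay between 291 and 331 FPKM. The kidney epithelial genes Cdh16, at 177 to 222 FPKM, Pax8, at 69.6 to 103 FPKM, and Pax2, at 32.3 to 54.5 FPKM, were also present. Of the markers of tubule segments, Aqp1 was measured at 3.90 to 9.20 FPKM, whereas Slc34a1, Umod, Calb1 and Aqp2 were at 0 in all 6 libraries. Among the 17 tubular markers, 10 were tested and 5 passed the limma test (Krt18 lower, with Cdh16, Pax8, Pax2 and Aqp1 higher), against 3.23% of all tested genes. Of these calls, that of Pax2 was kept under every alternative, and 1 was left with limma's trend turned off. The summed level of the list was 3820 to 3893 FPKM in the LPS-labelled libraries and 3808 to 3860 FPKM in the LPSKD-labelled ones. Of 8 immune markers 5 were tested, and the macrophage receptor gene Csf1r alone was called (log2 fold change 0.45, limma adjusted p = 0.0208). Its adjusted p was between 0.0774 and 0.0904 without LPS3, LPSKD1, LPSKD2 or LPSKD3 and 0.0867 without the trend, so the call was lost there. The summed level of the immune markers was 58.2 to 64.8 FPKM with LPS and 61.4 to 74.8 FPKM with LPSKD as the label. No endothelial, fibroblast or podocyte marker passed the test, with summed levels of 2.31 to 4.29, 23.4 to 30.1 and 45.6 to 50.2 FPKM in the LPS-labelled libraries and of 2.71 to 4.46, 15.6 to 29.1 and 38.8 to 43.9 FPKM in the LPSKD-labelled ones. The podocyte gene Nphs1 was at 0 throughout. The part of these markers in the results below was not tested. In bulk libraries, fewer cells that transcribe a gene cannot be told apart from less RNA per cell.

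IFIT proteins are built from helical repeats that form a pocket for RNA, and their genes are among the most strongly interferon-induced of the genome. Ifit1 binds RNA whose cap lacks the methylation of the host's own transcripts and keeps it from the translation machinery, Ifit2 binds RNA rich in A and U, and Ifit3 is known as a partner of other IFIT proteins, best described for the human proteins. Type I interferon reaches these genes through the receptor chains Ifnar1 and Ifnar2, the kinases Jak1 and Tyk2, and a transcription factor complex that holds Stat2 and Irf9 and binds the interferon-stimulated response element (ISRE). Several IFIT genes can also be switched on by IRF3 without interferon. Tubular epithelial cells carry Tlr4, the receptor for LPS, and can mount such a response themselves.

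Ifit1 (ENSMUSG00000034459, chr19:34640871-34650009, plus strand, GRCm38) was measured at 16.7, 17.3 and 16.6 FPKM in the LPS-labelled libraries and at 1.09, 1.55 and 1.47 FPKM in the LPSKD-labelled ones. Every library labelled LPSKD was far below every library labelled LPS. The means were 16.8 ± 0.360 and 1.37 ± 0.245 FPKM (SD, n = 3), so that the level was 12.3-fold lower, a difference of -91.8%. On the scale of log2(FPKM + 0.1) the difference between the groups was -3.54 (SE 0.14), and of the 11723 genes tested only 2 had a lower value. These levels rested on 578, 597 and 563 fragments in the LPS-labelled libraries and on 38, 52 and 52 in the LPSKD-labelled ones. The exact Poisson intervals (95%) of the latter ran from 26.9 to 52.2 for 38 fragments and from 38.8 to 68.2 for 52, which cover counting error only.

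Ifit2 (ENSMUSG00000045932, chr19:34550694-34576419, plus strand) had the opposite direction. Its levels were 40.5, 40.7 and 44.3 FPKM in the LPS-labelled libraries and 46.6, 50.2 and 52.6 FPKM in the LPSKD-labelled ones. The lowest library labelled LPSKD lay above the highest labelled LPS, by less than the range within either group. The means were 41.9 ± 2.13 and 49.8 ± 3.02 FPKM (SD, n = 3), 19.0% higher in the libraries labelled LPSKD, with a log2 fold change of 0.25 (SE 0.06). Between 1423 and 1528 fragments in the LPS-labelled libraries and between 1643 and 1888 in the LPSKD-labelled ones stood behind these levels.

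Ifit3 (ENSMUSG00000074896, chr19:34583531-34588731, plus strand) was the most abundant member. It was measured at 59.5, 61.1 and 59.8 FPKM in the LPS-labelled libraries and at 55.1, 57.8 and 57.9 FPKM in the LPSKD-labelled ones. The groups did not overlap, but they lay close together. The means of 60.1 ± 0.840 and 56.9 ± 1.60 FPKM (SD, n = 3) differed by -5.35%, a log2 fold change of -0.08 (SE 0.04). With 1664 to 1840 fragments per library, the counting error of a single library was 2.33% to 2.45%.

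Ifit3b (ENSMUSG00000062488, chr19:34607970-34613401, plus strand), a near copy of Ifit3, lay between these patterns. It was measured at 22.6, 22.1 and 24.3 FPKM in the LPS-labelled libraries and at 15.4, 15.6 and 18.0 FPKM in the LPSKD-labelled ones. All 3 libraries labelled LPSKD were below all 3 labelled LPS. The means were 23.0 ± 1.12 and 16.3 ± 1.47 FPKM (SD, n = 3), a difference of -28.9% and a log2 fold change of -0.49 (SE 0.08). Its fragments numbered 666 to 717 in the LPS-labelled libraries and 456 to 555 in the LPSKD-labelled ones.

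**Figure D1:**
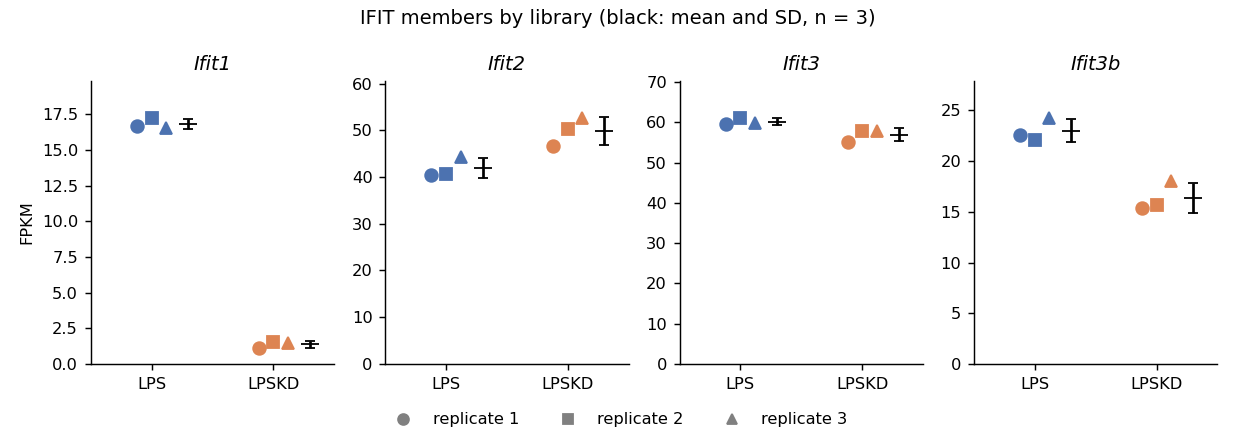
Level of each IFIT member in FPKM (vertical axes, each from 0 and with its own scale) in the 3 libraries labelled LPS and the 3 labelled LPSKD, with a marker shape for each replicate number and the mean and SD (n = 3) in black. Ifit1 lies between 16.6 and 17.3 FPKM with LPS and between 1.09 and 1.55 FPKM with LPSKD. The groups of the other members lie closer together than those of Ifit1. Ifit2 is higher with LPSKD, Ifit3 slightly lower, and the mean of Ifit3b differs by -28.9%.

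The plot of the members by library shows that the groups overlapped for none of the 4 members. Groups without overlap were found for 23.8% of the tested genes, 13.2% with LPSKD lower and 10.6% with LPSKD higher, and nothing is read from the members' count, since the contrast chose them. The order of the levels per length was the same in all 6 libraries, with Ifit3 highest, then Ifit2, Ifit3b and Ifit1, and no neighbours in this order overlapped within a group. The median log2 fold change over the tested genes was -0.01. The spread between libraries also differed among the members. Ifit1 varied by 2.14% (coefficient of variation) in the LPS-labelled libraries and by 17.8% in the LPSKD-labelled ones, where counting error alone was 13.9% to 16.2% per library. Within its group, the library LPSKD1 was the lowest for each of the 4 members, and LPSKD3 was the highest for Ifit2, Ifit3 and Ifit3b.

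Comparing the members within a library cancels any difference in scale between libraries. Ifit2 was 2.43, 2.36 and 2.67 times as abundant as Ifit1 per length in the LPS-labelled libraries, and 42.6, 32.3 and 35.8 times in the LPSKD-labelled ones. The lowest ratio in the libraries labelled LPSKD was thus far above the highest in those labelled LPS. As a log2 ratio of Ifit1 to Ifit2, both with 0.1 FPKM added, the means were -1.31 ± 0.094 and -5.10 ± 0.183 (SD, n = 3), a difference of -3.79. The ratio of Ifit1 to Ifit3 was steady among the libraries labelled LPS, at 0.281, 0.282 and 0.277, and was 0.0199, 0.0269 and 0.0254 in the LPSKD-labelled ones. The ratio of Ifit2 to Ifit3 was 0.681, 0.667 and 0.742 in the LPS-labelled libraries and 0.847, 0.869 and 0.909 in the LPSKD-labelled ones, a far smaller difference.

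The summed level of the 4 members was 139, 141 and 145 FPKM in the LPS-labelled libraries and 118, 125 and 130 FPKM in the LPSKD-labelled ones, or 142 ± 2.82 and 124 ± 5.98 FPKM (SD, n = 3). The make-up of the sum differed between the groups. The share of Ifit1 was 11.9% ± 0.401 in the LPS-labelled libraries and 1.10% ± 0.160 in the LPSKD-labelled ones, and that of Ifit3b was 16.2% ± 0.538 and 13.1% ± 0.696. Ifit2 took 29.5% ± 0.942 and 40.0% ± 0.509 of the sum, and Ifit3 took 42.4% ± 1.05 and 45.8% ± 1.10 (SD, n = 3).

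**Figure D2:**
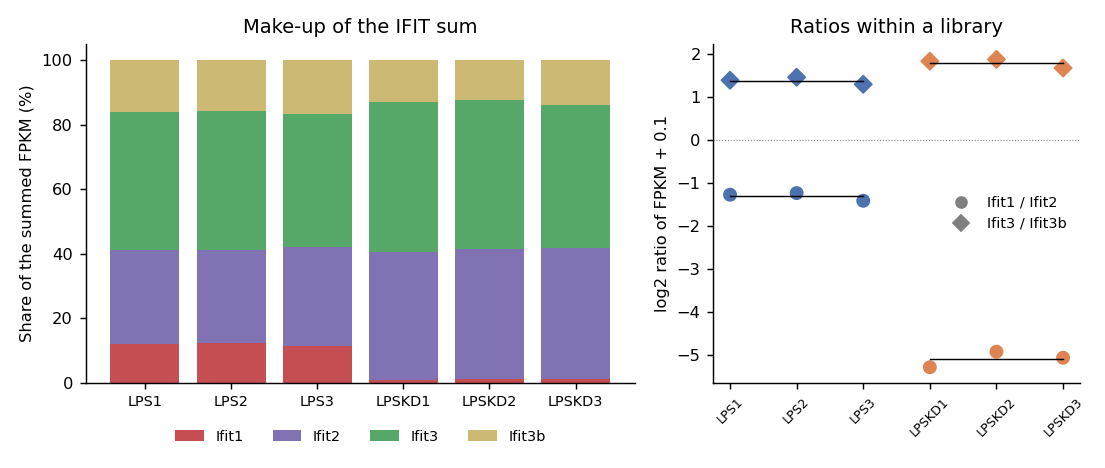
Left, the share of each member in the summed FPKM of the 4 members (%), as a stacked bar for each library. Right, the log2 ratios of Ifit1 to Ifit2 (circles) and of Ifit3 to Ifit3b (diamonds) in each library, from FPKM + 0.1, with group means as lines. The mean Ifit1 share is 11.9% with LPS and 1.10% with LPSKD, and the mean log2 ratio of Ifit1 to Ifit2 is -1.31 and -5.10.

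Ifit3 and Ifit3b cannot be separated as cleanly as the other members, since their coding sequences differ at 11 of 1209 bases (99.1% identity), with an identical run of up to 329 bases. Of the windows of 31 bases along the coding sequence of either gene, 78.3% occur in the other, as do 45.4% of the windows of 100 bases and 3.30% of the windows of 300 bases, the mean insert length of the libraries. How the authors divided such reads is not given in the sources used here, so the levels of the pair are uncertain individually. The stretch below is shown because it holds 4 of the differing bases, printed in capitals, within 90 bases at coding positions 199 to 288. It lies in the single exon that holds nearly all of the coding sequence, at chr19:34587254-34587343 for Ifit3 and chr19:34611624-34611713 for Ifit3b (GRCm38, plus strand).
Ifit3: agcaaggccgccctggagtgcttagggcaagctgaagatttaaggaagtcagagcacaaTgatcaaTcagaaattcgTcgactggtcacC
Ifit3b: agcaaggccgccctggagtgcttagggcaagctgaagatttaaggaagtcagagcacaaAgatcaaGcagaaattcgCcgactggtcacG

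The ratio of Ifit3 to Ifit3b was 2.63, 2.76 and 2.46 in the LPS-labelled libraries and 3.59, 3.69 and 3.21 in the LPSKD-labelled ones, or 2.62 ± 0.150 and 3.50 ± 0.254 (SD, n = 3), without overlap. Taken as a single unit, the pair had 2474, 2506 and 2484 fragments in the LPS-labelled libraries and 2128, 2140 and 2336 in the LPSKD-labelled ones, a log2 fold change of -0.18. Ifit2 shares none of its 31-base windows with another gene. Ifit1 shares 18.5% of them with its relatives Ifit1bl1 and Ifit1bl2 and 6.51% of its 100-base windows with Ifit1bl2, but none of its 300-base windows. In coding sequence, Ifit1 was 62.6% identical to Ifit2, 67.8% to Ifit3 and 67.3% to Ifit3b, and Ifit2 was 69.2% identical to Ifit3.

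The 4 members lie on the plus strand within 99.3 kb of chromosome 19, each with 5 coding bases in a first coding exon and the remaining 1204 to 1405 in a single further exon. The Ifit1 relatives lie on the opposite strand between them. Ifit1bl1 (ENSMUSG00000079339, chr19:34592891-34601956) lies between Ifit3 and Ifit3b and is 78.6% identical to Ifit1 in coding sequence. It was measured at 1.67, 1.64 and 2.02 FPKM in the LPS-labelled libraries, from 60, 59 and 71 fragments, and at 0.417, 0.288 and 0.627 FPKM in the LPSKD-labelled ones, from 15, 10 and 23 fragments. All libraries labelled LPSKD were below all labelled LPS, with a log2 fold change of -1.83 (SE 0.32, limma adjusted p = 0.0193). With a pseudocount of 1 the log2 fold change was -0.95. The call is not firm, since the adjusted p rose to 0.0513 without the library LPS2, 0.102 without LPS3, 0.0661 without LPSKD1 and 0.0564 without LPSKD2. It also rose to 0.0507 with the replicate number as a block. Of its 31-base coding windows, 18.1% occur in Ifit1 or Ifit1bl2, so some of its fragments may be shared with them. Ifit1bl2 (chr19:34617049-34640743) had 9, 5 and 0 fragments in the LPS-labelled libraries and 0, 3 and 0 in the LPSKD-labelled ones, too few to pass the filter.

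The neighbours outside the cluster did not pass the test. These were Fas, a death receptor (log2 fold change -0.30, limma adjusted p = 0.714), Lipa, a lysosomal lipase (0.04, limma adjusted p = 0.911), Pank1, an enzyme of coenzyme A synthesis (0.15, limma adjusted p = 0.513), and the kinesin Kif20b (-0.04, limma adjusted p = 0.806). Ch25h, an interferon-induced cholesterol hydroxylase, had at most 9 fragments in a library and Slc16a12, a monocarboxylate transporter, at most 18, so neither was tested.

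**Figure D3:**
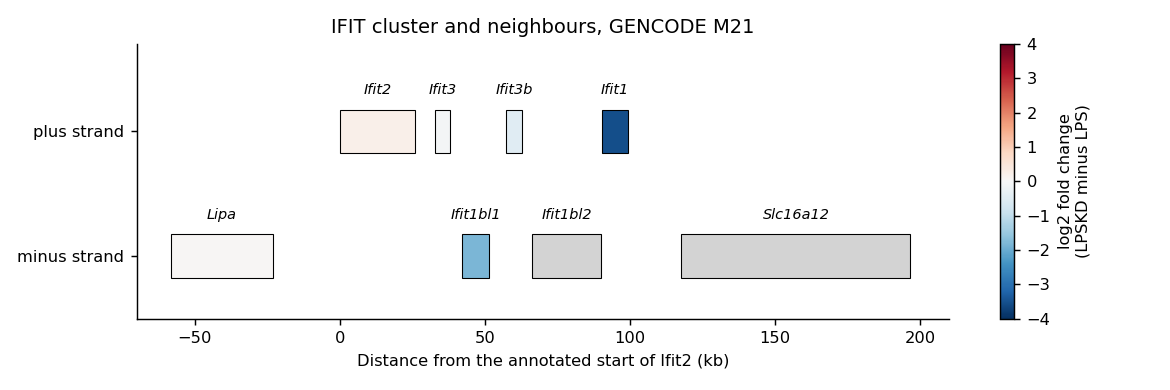
Annotated genes of the IFIT cluster and its nearest neighbours by distance from the start of Ifit2 (kb, horizontal axis) and strand (vertical axis), coloured by log2 fold change (LPSKD minus LPS), with genes below the filter in grey. The member of lowest value, Ifit1 (-3.54), and the member of highest value, Ifit2 (0.25), lie at opposite ends of the cluster, and Ifit1bl1 (-1.83) lies between Ifit3 (-0.08) and Ifit3b (-0.49).

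The upstream sequences of the members are shown as a description of the elements found there. Windows of the 250 bases before each RefSeq start (GRCm38.p6, plus strand) were used, and all 4 members had an entry. RefSeq and GENCODE starts need not be the same base. They were searched on both strands for the ISRE core (GAAA NN GAAA, without the spaces), the GAS element bound by Stat dimers (TTCNNNGAA) and an NF-kB site (GGG NN TTTCC, likewise), and matches to the ISRE core or GAS are in capitals.
Ifit1, chr19:34640639-34640888: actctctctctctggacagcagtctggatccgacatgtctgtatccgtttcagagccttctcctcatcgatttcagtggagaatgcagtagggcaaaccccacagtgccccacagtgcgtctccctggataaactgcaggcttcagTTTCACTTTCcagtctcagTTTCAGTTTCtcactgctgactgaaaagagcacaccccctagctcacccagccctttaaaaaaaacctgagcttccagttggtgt
Ifit3, chr19:34583279-34583528: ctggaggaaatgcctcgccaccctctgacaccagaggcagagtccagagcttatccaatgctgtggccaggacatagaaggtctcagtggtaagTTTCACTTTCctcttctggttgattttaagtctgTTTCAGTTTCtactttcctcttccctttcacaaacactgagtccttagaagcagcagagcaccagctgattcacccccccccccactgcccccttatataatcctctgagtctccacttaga
Ifit3b, chr19:34607707-34607956: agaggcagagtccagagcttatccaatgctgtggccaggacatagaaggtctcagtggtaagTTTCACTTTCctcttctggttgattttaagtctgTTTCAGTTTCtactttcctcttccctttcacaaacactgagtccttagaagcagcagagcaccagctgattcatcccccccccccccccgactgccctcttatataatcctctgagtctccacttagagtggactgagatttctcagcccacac
Ifit2, chr19:34550444-34550693: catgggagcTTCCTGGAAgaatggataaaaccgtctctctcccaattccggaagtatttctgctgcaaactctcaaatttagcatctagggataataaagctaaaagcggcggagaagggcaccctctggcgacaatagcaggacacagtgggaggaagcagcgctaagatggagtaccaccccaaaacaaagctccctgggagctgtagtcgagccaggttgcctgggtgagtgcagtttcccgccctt

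Ifit1, Ifit3 and Ifit3b each had 2 matches to the ISRE core, read on the minus strand, in the same letters and order. In Ifit1 they began 104 and 85 bases before the start, 19 bases apart, and in Ifit3 and Ifit3b they were 34 bases apart, beginning 156 and 122 bases before the start in Ifit3 and 188 and 154 in Ifit3b. Neither of the windows of Ifit2, which has a second annotated start, held a match to the ISRE core, and the first held a match to GAS that began 241 bases before the start. Both windows lie near the upstream end of the gene, annotated as 25.7 kb long with 3 exons, and sequence further into it was not searched. They therefore do not tell whether Ifit2 has an ISRE elsewhere. No member's window held the NF-kB letters. Of the 32851 RefSeq promoter windows of the same length, 2.98% held the ISRE core and 0.180% held it at least 2 times, 7.02% held GAS and 1.41% held the NF-kB site. In GENCODE, Ifit1bl2 starts 128 bases upstream of Ifit1 on the opposite strand, and its window held the same ISRE matches (chr19:34640785-34640794 and chr19:34640804-34640813) as that of Ifit1. Ifit1, Ifit3 and Ifit3b share the pair of matches, and their log2 fold changes were -3.54, -0.08 and -0.49. Any link between the matches and the levels was not tested.

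For each member, the genes whose levels ran most alike over the 6 libraries were found from the root mean square difference of log2(FPKM + 0.1), centred on each gene's mean. Nearest to Ifit1 were Usp18, the protease that removes Isg15 from proteins and dampens interferon receptor signalling (0.219), Apol9b, an apolipoprotein L gene with a close copy (0.282), and Oas3, a sensor of double-stranded RNA (0.538). Their log2 fold changes were -3.83, -3.08 and -2.73. The measure includes the difference between the groups, so this likeness largely describes the contrast that chose Ifit1. Oas3 rested on 6 to 15 fragments in the LPSKD-labelled libraries. The mean of Usp18 was 19.5 ± 1.66 FPKM in the LPS-labelled libraries and 1.29 ± 0.233 FPKM in the LPSKD-labelled ones, and that of Apol9b was 6.72 ± 0.833 and 0.706 ± 0.0850 FPKM (SD, n = 3). Ifit3b was nearest to H2-DMa, which loads peptides onto MHC class II (0.0291), to Stat2 (0.0378) and to the ribonuclease gene Ybey (0.0571).

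The remaining members had small fold changes, and the measure gave them neighbours of similarly small change. Those of Ifit2 were the kinase gene Dclk3 (0.0277), the homeobox gene Zfhx4 (0.0360) and Coq6, an enzyme of coenzyme Q synthesis (0.0392), and those of Ifit3 were the helicase gene Ddx42 (0.0104), Baz1b, a chromatin remodelling subunit (0.0109), and Las1l, which acts in ribosome assembly (0.0124). Between the members, the measure was 1.90 for Ifit1 and Ifit2, 1.73 for Ifit1 and Ifit3 and 1.53 for Ifit1 and Ifit3b, against 0.174 for Ifit2 and Ifit3, 0.220 for Ifit3 and Ifit3b and 0.373 for Ifit2 and Ifit3b. By this measure Ifit1 stood apart from the rest of its family, which describes the contrast that chose the members.

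The genes that act upstream of the IFITs were read from lists of the pathway, against a background of 3.23% of tested genes called by limma (adjusted p under 0.05), 1.66% lower and 1.57% higher in the libraries labelled LPSKD. Of 9 genes of interferon reception, all tested, 4 were lower and none higher, with a median log2 fold change of -0.15. Irf9, Stat2 and Usp18 were among the called genes. Irf9, a DNA-binding protein, was measured at 21.6, 21.1 and 20.8 FPKM in the LPS-labelled libraries and at 4.59, 6.36 and 5.49 FPKM in the LPSKD-labelled ones, without overlap (log2 fold change -1.94, SE 0.12, limma adjusted p = 6.5e-05). Usp18 fell by 3.83 on the log2 scale (limma adjusted p = 1.1e-05).

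Stat2 fell by 0.52 (limma adjusted p = 0.0131), but its adjusted p rose to as much as 0.0681 and the call was lost without the library LPS3, LPSKD1 or LPSKD2. The receptor chains Ifnar1 (0.02, limma adjusted p = 0.920) and Ifnar2 (0.25, limma adjusted p = 0.275), the kinases Jak1 (0.04, limma adjusted p = 0.716) and Tyk2 (-0.01, limma adjusted p = 0.979) and the inhibitor Socs1 (-0.15, limma adjusted p = 0.884) did not pass the test.

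Interferon transcripts themselves were at the limit of detection. None of 11 ligand genes passed the filter, and Ifna1, Ifna2 and Ifna5 were at 0 in all 6 libraries. Their summed level was 0.426 to 1.99 FPKM in the LPS-labelled libraries and 0 to 0.274 FPKM in the LPSKD-labelled ones, with at most 16 fragments of a gene in a library. Ifnb1, which encodes interferon beta, was measured at 0.147, 0.147 and 1.20 FPKM in the LPS-labelled libraries and at 0, 0 and 0.0720 FPKM in the LPSKD-labelled ones. It was detected in every library labelled LPS and in a single one labelled LPSKD, and no test was made at this depth.

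Of 17 genes of the RNA and LPS sensors and the IRF3 route, 16 were in the table and 15 were tested, of which 4 were lower and none higher, with a median of -0.10. Irf7, an interferon-induced transcription factor, fell by 2.55 on the log2 scale (limma adjusted p = 0.00157), the RNA sensors Ddx58 (RIG-I) by 1.69 (limma adjusted p = 2.4e-05) and Ifih1 (MDA5) by 1.41 (limma adjusted p = 0.00642), and Tlr3, which senses double-stranded RNA in endosomes, by 0.37 (limma adjusted p = 0.00245). With a pseudocount of 1, the log2 fold change of Ifih1 was -0.92. Irf3 itself was measured at 37.4, 36.7 and 35.1 FPKM in the LPS-labelled libraries and at 39.3, 37.2 and 40.2 FPKM in the LPSKD-labelled ones, with overlapping groups.

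Of 18 genes of RNA capping and translation, namely cap methyltransferases, Eif4e, Eif4g1 and subunits of eIF3, none passed the limma test in either direction. At an unadjusted p under 0.05 there were 2 of the 18, against 17.6% of all tested genes, and limma on the fragments (voom) called 0. Their median log2 fold change was -0.03.

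Among 25 other antiviral effectors, 22 were tested, 12 were lower and none higher, with a median of -0.90. The called genes of largest change with the pseudocount of 0.1 were Oas3, which fell by 2.73 on the log2 scale (limma adjusted p = 0.00849), Isg15, a ubiquitin-like modifier, by 2.56 (limma adjusted p = 0.00138), Ifi44 by 2.42 (limma adjusted p = 0.00122) and Oas1a by 2.01 (limma adjusted p = 0.00157). The call of Oas3 was lost without the library LPS3 (limma adjusted p = 0.0626), and with a pseudocount of 1 its log2 fold change was -1.04, smaller than those of Isg15 (-2.20), Ifi44 (-1.79) and Oas1a (-1.37). Ifit1, at -3.54, lay below every tested gene of these lists but Usp18, and Ifit2, at 0.25, lay at the upper end beside Ifnar2.

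**Figure D4:**
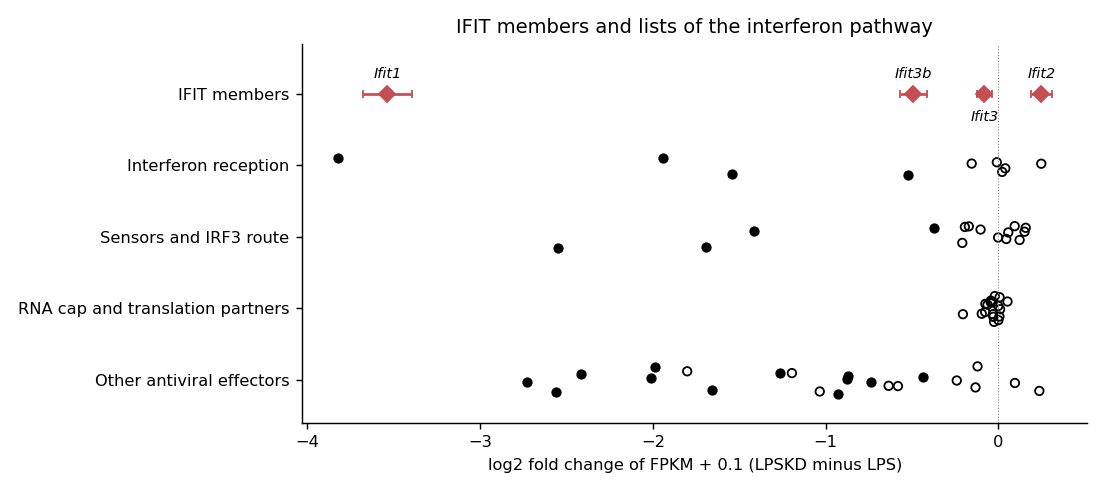
Log2 fold change (horizontal axis, LPSKD minus LPS, on FPKM + 0.1) of the 4 IFIT members (red, with SE) and of the tested genes of 4 pathway lists (black filled, limma adjusted p under 0.05, and open, not called). The members span -3.54 to 0.25, and the called genes of the lists all lie below 0.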

How the data were processed

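Poly(A) RNA of 6 mTEC libraries was sequenced as read pairs, and the sample titles gave the group and replicate number of each library. The authors deposited FPKM values, 1 per gene and library, with no pooling of replicates. The submitters' processing notes name Bowtie 0.12.2, HISAT2 2.0 and StringTie 1.3.0 and the builds mm8 and GRCh38.p13 without saying which step used which, and the aligner, gene models and filters behind the table are not given in the sources used here. Symbols, coordinates and coding sequences came from GENCODE M21 (GRCm38), matched by gene identifier for 22399 of 22442 rows, and promoter windows from RefSeq (GRCm38.p6).

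FPKM values do not state their depth. Multiplied by the merged coding length (up to 10 bases more) and a library total, the values of 16457 genes (97.7% of the 16837 above 0) were whole fragments in all libraries within 0.005. The totals were 24084827 to 25422171 fragments per library. Of the 10585 genes averaging at least 50 fragments, 98.1% came out whole, against 0.794% with the totals raised by 0.1%. No replicates agreed within sampling noise (chi-square per gene 4.05 to 10.6 over 11978 genes).

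The groups were compared with limma 3.58.1 in R 4.3.3. The model (lmFit, eBayes with trend) had no covariates and was fitted to log2(FPKM + 0.1) of every gene averaging 0.5 FPKM or more, and Benjamini-Hochberg adjusted p-values under 0.05 were called. A pseudocount understates the change of low genes. Members have no p, since the same contrast chose them. The fit was tested on simulated data. Other values were computed in Python 3.11.15 with numpy 2.4.6, pandas 2.3.3 and Biopython 1.88. Named genes were the members, Stat3, other Ifit genes, the 3 protein-coding genes on each side of the cluster, the 3 genes most like each member, all genes of interferon reception and up to 4 called genes of the largest change in each other list, and some genes that the rule or the lists cover are not reported here by name. Ifnb1, Irf3 and the markers named were chosen after their values were seen. The members and lists were chosen with earlier results of these data known.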

Additional observations from a re-analysis of the deposited data

How the results depend on the processing

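The members' fold changes kept their direction under all alternatives, namely another pseudocount, quantile normalisation, median centring, a replicate block, limma voom on the fragments and leaving out each library. The log2 fold change of Ifit1 was -2.92 with a pseudocount of 1 and -3.63 to -3.39 with single libraries left out. Ifit2 ranged from 0.21 to 0.30, Ifit3 from -0.09 to -0.06 and Ifit3b from -0.56 to -0.45 with single libraries left out, and Ifit3 and Ifit3b summed gave -0.18. The difference in the log2 ratio of Ifit1 to Ifit2 was -3.16 with a pseudocount of 1 and -3.87 to -3.69 with single libraries left out. The larger pseudocount weighs most on the low level of Ifit1 in the libraries labelled LPSKD. Of all tested genes, limma called 379, against 140 without the trend, 582 by voom, and 158 (without LPS3) to 356 (without LPS1) with single libraries left out, among them 178, 192 and 168 without LPSKD1, LPSKD2 and LPSKD3. Calls among the 5 pathway lists numbered 20, and 18 to 22 over all alternatives. The cause of these differences was not tested.

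Deviations from the group means correlated at -0.0160, -0.00388 and -0.0426 between same-numbered libraries, and no library correlated best with its own number. The replicate numbers were therefore not used as pairs in the main fit. Such correlations cannot tell whether same-numbered libraries were prepared together. With the replicate number as a block, 213 genes were called, 19 of them in the pathway lists, and the fold change of Ifit1 stayed at -3.54. Depth limits the interferon ligands and Ifit1bl2, whose few fragments allowed no test, and the Ifit1 level in the libraries labelled LPSKD, and the identity of Ifit3 and Ifit3b limits how far their levels are separate.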
